A study of Capsicum annuum with 12 samples.

Results

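The H3K9me2 loci of chromosomes 1 and 2 of pepper were described here from chromatin immunoprecipitation sequencing of young leaves. H3K9me2 is dimethylation of lysine 9 of histone H3. The peaks of each of the 2 H3K9me2 replicates were merged, and the bases covered in both replicates formed the shared intervals. Chromosome 1 held 813 of them and chromosome 2 held 428, which made 1241 of 4266 on the 12 chromosomes and of 4977 on all sequences. The intervals were chosen by H3K9me2 peaks in both replicates, so their H3K9me2 values are a description and were not tested.

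The plants were Capsicum annuum cv. 59, and the study concerned how the pepper genome is folded. The 12 samples were 2 immunoprecipitated replicates and 2 inputs for each of 3 marks, H3K9me2 (antibody ab1220), H3K27me3 (antibody 07-499) and H3K4me3 (antibody ab8580). All groups shared cultivar and tissue, and whether replicates came from separate plants is not stated, so spread between them may be technical. The inputs entered only as the control of the authors' peak calling.

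In plants, H3K9me2 is laid down by methyltransferases of the SUVH family and is tied to non-CG DNA methylation through the reader and writer CMT3, as worked out in Arabidopsis. It is known from silent transposons and other repeats of heterochromatin. H3K27me3 is the mark that Polycomb complexes place on repressed genes, and H3K4me3 marks the starts of transcribed genes.

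The H3K9me2 lists held 3568 peaks on chromosomes 1 and 2 in replicate 1 and 2804 in replicate 2. The H3K27me3 lists held 8059 and 7201 there, and the H3K4me3 lists 7742 and 7632. Read totals of the libraries are not given in the sources, and depth is known only at the peak summits. An H3K9me2 peak on chromosomes 1 and 2 had a median of 18 fragments over its summit in replicate 1 and 19 in replicate 2, against 79 and 85 for H3K4me3. The H3K9me2 values thus rest on few fragments.

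The shared intervals were short and weakly enriched. Their length ran from 1 to 1464 bp, with a median of 294 bp, against 254 bp on chromosomes 3 to 12. Together they covered 427 kb of the 512 Mb that the peaks of chromosomes 1 and 2 span. The fold enrichment, the authors' ratio of summit fragments over the local background, had medians of 3.78 in replicate 1 and 3.70 in replicate 2, against 4.28 and 4.36 on chromosomes 3 to 12. The highest fold of any of the 1241 was 11.7 in replicate 1 and 14.03 in replicate 2.

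Intervals were denser than elsewhere, and the local background at their summits was higher. There were 2.43 intervals per Mb on chromosomes 1 and 2, at 2.44 on chromosome 1 and 2.40 on chromosome 2. Chromosomes 3 to 12 held 1.18 per Mb, with 1.45 on the densest of them. The median number of fragments was 32 in each replicate, against 18 in each on chromosomes 3 to 12. The median local background, the fragments the caller expected at the summit, was 8.05 in replicate 1 and 8.11 in replicate 2, against 3.39 and 3.34 on chromosomes 3 to 12. More fragments and more background went together, and the fold was not higher.

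A limit was set at 5 times the lowest background of each library, 6.70 fragments in replicate 1 and 6.58 in replicate 2. These intervals passed it more often than those of chromosomes 3 to 12. On chromosomes 1 and 2, 739 intervals (59.5%) were above the limit in both replicates, against 259 (8.56%) on chromosomes 3 to 12 and 23.4% over the 12 chromosomes. Both chromosomes showed it, at 60.1% on chromosome 1 and 58.4% on chromosome 2. The 328 intervals within the limit in both replicates came to 0.641 per Mb, against 1.01 per Mb on chromosomes 3 to 12. Among these the order of the densities was therefore turned round. Chromosomes are parts of one genome and not replicates, so these comparisons carry no test, and the part of the local background in them was not tested.

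At the margin of the rule, 13 intervals were no longer than 50 bp, with median folds of 4.06 in replicate 1 and 3.23 in replicate 2. Another 6 pairs of peaks missed each other by up to 50 bp, with median folds of 3.46 and 3.82. Of the 1241 intervals, 44 were under 100 bp.

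In bins of 100 kb, the intervals gathered in many small groups and not in a few places. Of the 5119 bins of chromosomes 1 and 2, 546 (10.7%) held an interval, and 139 bins (2.72%) were enough to hold 50% of the intervals, 92 on chromosome 1 and 47 on chromosome 2. Chromosomes 3 to 12 had 2001 filled bins of 25542 (7.83%). Bins with at least 3 intervals held 761 intervals (61.3%) on chromosomes 1 and 2, against 32.1% on chromosomes 3 to 12. Bins with at least 10 were rare, 3 in number with 48 intervals, and held 3.87% of the intervals, against 8.26% on chromosomes 3 to 12. The middle sizes thus carried most of the intervals on chromosomes 1 and 2.

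The fullest bin of 100 kb lay on chromosome 2 from 0.6 to 0.7 Mb and held 22 intervals, all above the background limit in both replicates. The next on chromosome 2, from 4.1 to 4.2 and from 78.6 to 78.7 Mb, held 7 each, and those from 34.6 to 34.7 and from 82.5 to 82.6 Mb held 6 each. On chromosome 1, the bin from 247.7 to 247.8 Mb held 15 intervals and its neighbour from 247.6 to 247.7 Mb held 9. The bins from 57.4 to 57.5, from 78.7 to 78.8 and from 166.7 to 166.8 Mb held 11, 9 and 8. The bins on chromosome 1 near 57 and 247 Mb held 0 intervals above the limit in both replicates, while the other 7 of these 10 bins held 3 to 22. The fullest bins were therefore of both kinds.

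In bins of 1 Mb, 326 of 513 (63.5%) held an interval, against 51.8% on chromosomes 3 to 12. It took 69 bins (13.5%) to hold 50% of the intervals, against 229 of 2561 (8.94%) on chromosomes 3 to 12. These shares of all bins also depend on the lower density of chromosomes 3 to 12. Among filled bins it took 69 of 326, against 229 of 1326. The fullest on chromosome 2 were the first Mb with 33 intervals, 73 to 74 Mb with 13 and 71 to 72 Mb with 12. On chromosome 1 they were 247 to 248 Mb with 24, 57 to 58 Mb with 21 and 311 to 312 Mb with 17. The first Mb of chromosome 2 also held 50 and 8 H3K27me3 peaks and 29 and 33 H3K4me3 peaks in replicates 1 and 2.

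**Figure D1:**
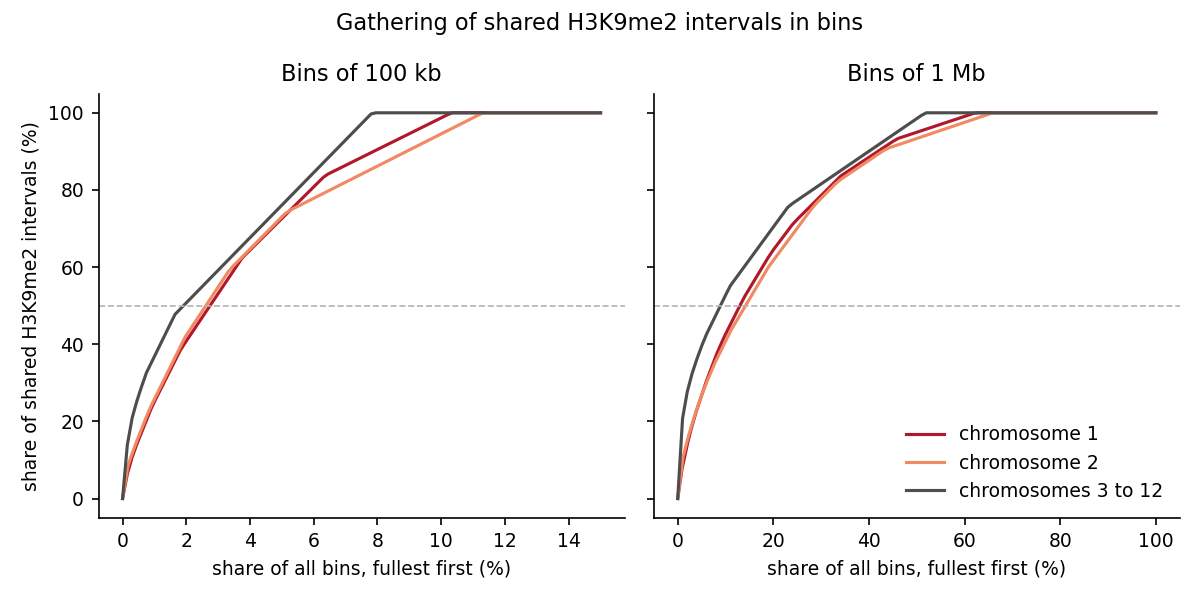
Share of shared H3K9me2 intervals (vertical axis, %) held by the fullest bins (horizontal axis, % of all bins) for bins of 100 kb (left) and 1 Mb (right) on chromosome 1, chromosome 2 and chromosomes 3 to 12. The dashed line marks 50%, which chromosomes 1 and 2 together reached with 2.72% of the 100 kb bins. Chromosomes 3 to 12, whose curve lies to the left, reached it with 1.91%. These shares of all bins depend on the density of intervals, 2.43 per Mb against 1.18. Among filled bins of 100 kb, 139 of 546 held 50%, against 489 of 2001.

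When neighbouring intervals up to 100 kb apart were joined, chromosomes 1 and 2 gave 485 loci, of which 193 were single intervals. The 115 loci with most intervals (23.7% of the loci) held 50% of the intervals, and the smallest of these 115 had 3. Loci of at least 10 intervals, called dense here, numbered 5 and held 93 intervals (7.49%, Wilson 95% interval 6.16 to 9.09%), against 22 loci with 504 intervals (16.7%) on chromosomes 3 to 12 and 14% over the 12 chromosomes. The Wilson interval takes the intervals as independent, while a dense locus brings in at least 10 neighbours at once, so it is too narrow. The limit of 10 lay in a sparse range, since 12 loci had 7 to 9 intervals and 2 had 10 to 12. Loci of 3 to 9 intervals held 747. From the peaks of 1 list, the share in dense loci was 12.7% without replicate 1 and 18.0% without replicate 2, and 219 and 239 loci held 50%. The intervals of chromosomes 1 and 2 were thus spread over many loci of moderate size.

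Locus 1 lay on chromosome 2 from 527301 to 692702 and held 26 intervals in 165 kb. Its fold ran from 2.25 to 5.37 in replicate 1 and from 2.27 to 4.44 in replicate 2. The median number of fragments was 84 in replicate 1 and 84.5 in replicate 2, and the median local background was 25.2 and 28.4. All 26 intervals were above the background limit in both replicates. Locus 1 also held 37 and 1 H3K27me3 peaks and 0 and 5 H3K4me3 peaks in replicates 1 and 2. Its interval of highest mean fold, which was also its longest at 670 bp, lay from 630678 to 631347 and had 99 fragments at a fold of 3.91 in replicate 1 and 120 at 4.44 in replicate 2. The next, from 621910 to 622553, had a fold of 5.37 in replicate 1 and 2.90 in replicate 2, and this difference went with a background of 22.4 and 34.8.

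Locus 2 lay on chromosome 1 from 247655526 to 247785335 and held 24 intervals in 130 kb. It was unlike locus 1 in its background, which had medians of 3.37 in replicate 1 and 3.50 in replicate 2, and 0 of its intervals were above the limit in both. The median fold was 4.61 in replicate 1 and 4.23 in replicate 2, on 20 and 19 fragments. Its interval of highest mean fold, from 247669365 to 247669584, had folds of 6.35 and 5.53. The longest, from 247711941 to 247712802, had 862 bp and folds of 5.92 and 5.61, and closed a run of 7 intervals that began at 247696361. No H3K27me3 or H3K4me3 peak of any of the 4 libraries lay in this locus.

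Locus 3 lay on chromosome 1 from 57390184 to 57613983, with 21 intervals in 224 kb. It too had a low background, with medians of 3.08 in replicate 1 and 2.87 in replicate 2, and folds of 4.46 and 4.66 on 17 fragments each. Its interval of highest mean fold and greatest length, from 57399455 to 57400047, had folds of 5.20 and 5.69 on 19 fragments in each replicate. The next, from 57561548 to 57561857, stood alone at folds of 5.05 and 5.53. Locus 3 was made up of 10 runs, some of them single intervals. Its gaps reached 73605 bp, against 85838 bp in locus 1 and 91954 bp in locus 4.

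Loci 4 and 5 also lay on chromosome 1. Locus 4, from 38877372 to 39084955, held 12 intervals, 9 of them above the background limit in both replicates, with median folds of 3.97 and 3.20. Locus 5, from 78697550 to 78742833, held 10 in 45.3 kb, 7 of them above the limit, with median folds of 3.60 and 3.15. The median gap between neighbours in the 5 loci was 3029 bp, and single loci ran from 1220 bp in locus 5 to 3322 bp in locus 1.

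The spacing of neighbours had a shorter scale than the loci of 100 kb. Of the 1239 gaps between neighbouring intervals, 619 (49.96%) were at most 5 kb, against 22.2% on chromosomes 3 to 12. Only 65 (5.25%) lay between 5 and 20 kb, against 9.25%. The median gap was 5.04 kb, against 281 kb on chromosomes 3 to 12. Neighbours were therefore either within 5 kb or far away.

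Runs of at least 3 intervals with gaps of at most 5 kb, called compact loci, were defined after these gaps had been seen. Chromosome 1 held 120 of them and chromosome 2 held 57, or 0.346 per Mb, against 141 or 0.0552 per Mb on chromosomes 3 to 12. They held 671 intervals (54.1%), against 602 (19.9%) on chromosomes 3 to 12 and 29.8% over the 12 chromosomes. Of the 177 compact loci, 95 had 3 intervals, 48 had 4 and 27 had 5, and only 2 had more than 6. Chromosomes 3 to 12 had 14 with at least 8, while chromosomes 1 and 2 had 1.

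Compact loci had similar lengths. Their span had a median of 5771 bp, a 10th percentile of 3782 bp and a 90th percentile of 6983 bp. On chromosomes 3 to 12 these were 5555, 2712 and 11844 bp. Spans of 4500 to 7000 bp made up 71.8%, against 37.6%. Within that range 42 loci (23.7%) fell between 6500 and 7000 bp and 35 (19.8%) between 5000 and 5500 bp, against 9.93% and 8.51%. Spans over 7500 bp made up 6.21%, against 25.5% on chromosomes 3 to 12. The spans of chromosomes 1 and 2 thus formed a pair of crowded classes with a sharp upper end.

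The distances between intervals were uneven as well. Within compact loci the median gap was 1231.5 bp, against 1361 bp on chromosomes 3 to 12. The distances that follow are of all pairs of intervals, in compact loci or not, whose midpoints lay within 12 kb. Of 1201 such pairs, 197 (16.4%) were 1000 to 1500 bp apart, against 7.84% on chromosomes 3 to 12. Pairs 3000 to 3500 bp apart made up 9.83%, against 5.40%, and pairs 4500 to 5000 bp apart made up 9.99%, against 6.59%. Distances over 7000 bp were rarer on chromosomes 1 and 2 in every class up to 12 kb. Pairs were pooled, so long runs weigh more in these shares. Chromosomes 3 to 12 had 14 compact loci of at least 8 intervals, against 1. The drawing of single loci shows the crowding of distances as columns of intervals at similar distances from the first base.

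**Figure D2:**
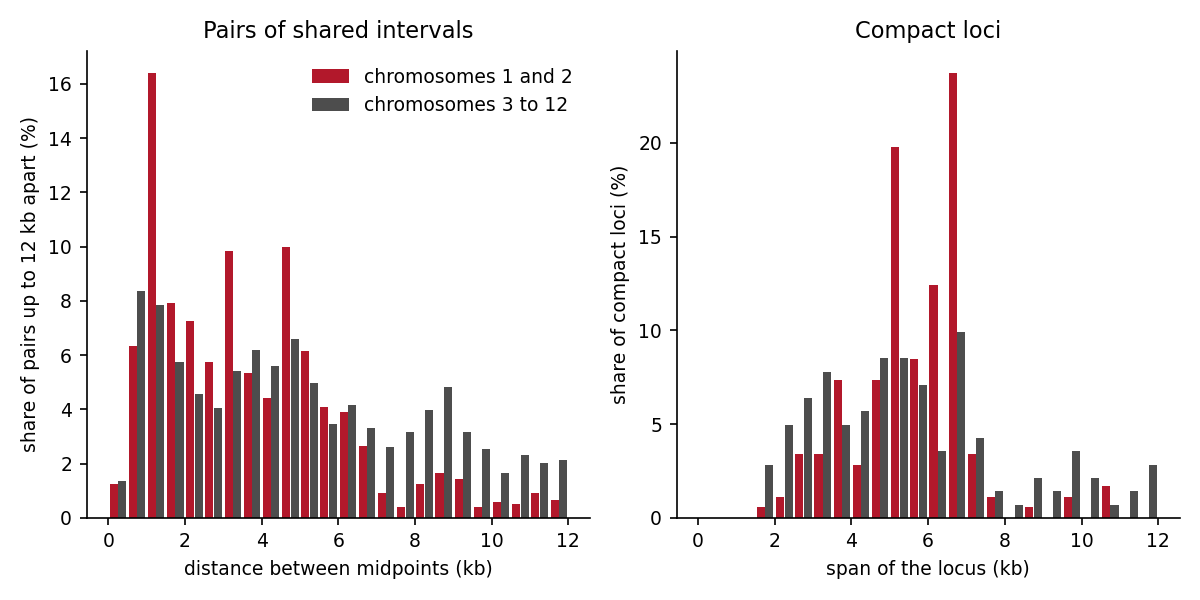
Share of pairs of shared H3K9me2 intervals by the distance of their midpoints (left, kb) and share of compact loci by span (right, kb), in classes of 500 bp up to 12 kb, for chromosomes 1 and 2 and for chromosomes 3 to 12. Chromosomes 1 and 2 have 16.4% of their pairs at 1000 to 1500 bp, and 23.7% of their compact loci span 6500 to 7000 bp.

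**Figure D3:**
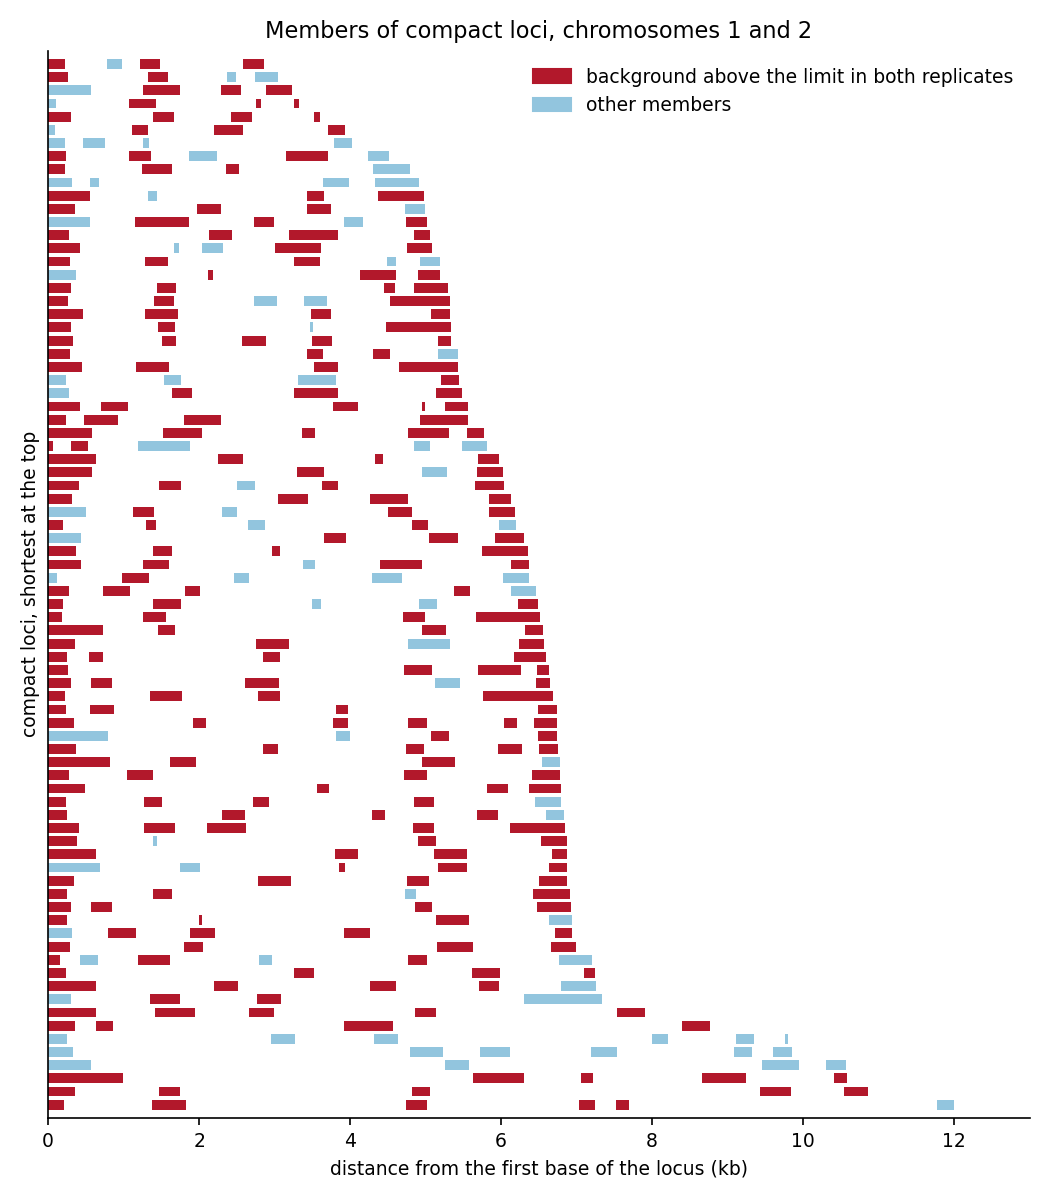
Positions of the shared intervals (bars, kb from the first base of the locus) in 80 compact loci of at least 4 intervals on chromosomes 1 and 2, 1 locus a line, ordered by span, with intervals above the background limit in both replicates in red. Most loci end between 5 and 7 kb, and 2 loci longer than 13 kb are not drawn.

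Background was high in most compact loci. Of their 671 intervals, 495 (73.8%) were above the limit in both replicates, against 23.3% in compact loci of chromosomes 3 to 12. Of the 177 loci, 166 had at least 1 such interval and 69 had no other kind, against 31 and 16 of 141. Outside compact loci the share was 42.8% on chromosomes 1 and 2, and for intervals with no neighbour within 5 kb it was 24.4%, against 4.91% and 3.43% on chromosomes 3 to 12. Intervals with close neighbours thus had the higher share on both sides of the comparison. The part of the local background in the spacing was not tested.

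The largest compact locus was a series of 22 intervals on chromosome 2, from 621910 to 692702, inside locus 1. Part of it recurred at an even distance. Of its 231 pairs, 17 had starts 8726 to 8802 bp apart, with a median of 8763 bp, and further pairs lay at medians of 17522.5 and 26307 bp, close to 2 and 3 times that distance. The series comprised 8 long intervals of 591 to 670 bp and 14 short ones of 245 to 415 bp. Successive long intervals started 8743 to 8802 bp apart. Of the short ones, 12 lay between them, mostly in pairs, and 2 lay after the last long one. Some peaks of H3K27me3 replicate 1 recurred at similar distances. They started 4221, 13038, 21729, 30524, 39282, 48049 and 56802 bp from the first base of the series. Of the 33 peaks of that library there, 8 lay on the intervals, and replicate 2 had 1 peak.

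In this series, long intervals had more fragments than short ones in both replicates without overlap. The long ones had 99 to 125 fragments in replicate 1 and 94 to 122 in replicate 2, and the short ones 54 to 92 and 57 to 86. The fold overlapped, at medians of 3.76 and 3.68 for long intervals and 2.93 and 2.64 for short ones. The median background of the 22 was 24.99 in replicate 1 and 28.4 in replicate 2, above the medians of dense loci 2 to 5. With no sequence of this build at hand, what repeats there was not examined.

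**Figure D4:**
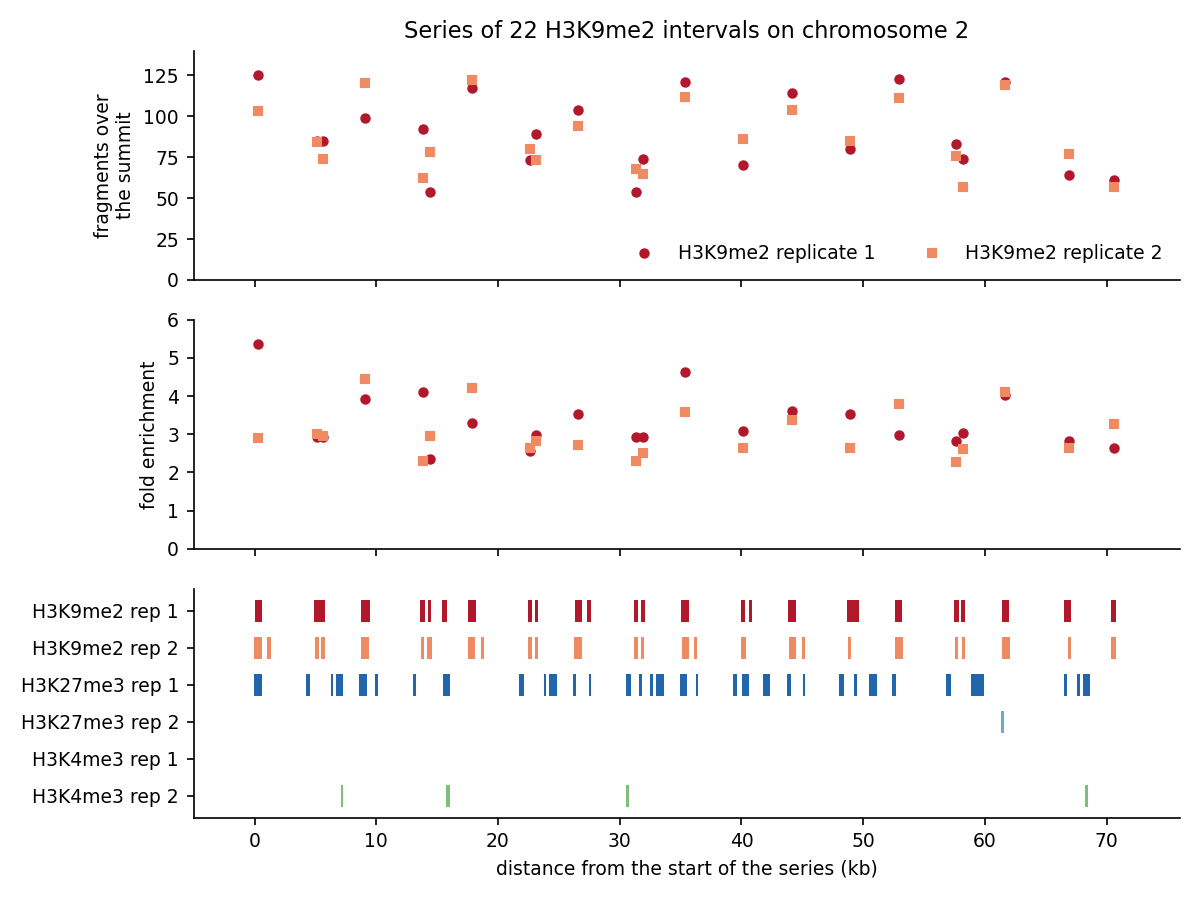
Fragments over the summit (top), fold enrichment (middle) and peaks of the 6 libraries (bottom) along the series of 22 H3K9me2 intervals on chromosome 2, by distance from the first (kb). The 8 long intervals, at 94 to 125 fragments, recur every 8743 to 8802 bp, and H3K27me3 replicate 1 has 33 peaks where replicate 2 has 1.

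The folds of the 2 replicates lay in the same narrow range at the intervals, with a weak correlation across them. Their 10th to 90th percentiles were 2.82 to 5.35 in replicate 1 and 2.72 to 5.34 in replicate 2, which limits how far folds can differ. The log2 of the fold in replicate 2 over that in replicate 1 had a median of -0.03 and an SD of 0.44 over the 1241 intervals. The folds were within 1.5 times of each other at 1012 intervals (81.5%), against 82.5% on chromosomes 3 to 12. Summits lay a median of 65 bp apart, against 87 bp. Across the 1241 intervals Pearson's r was 0.309 for log2 fold and 0.884 for log2 fragments, values that describe these 2 libraries only. Both replicates were read at the same intervals, each over its own local background, and 739 intervals were above the background limit in both.

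Most peaks were not found in the other replicate. On chromosomes 1 and 2, 1219 of 3568 peaks of replicate 1 (34.2%) and 1216 of 2804 of replicate 2 (43.4%) overlapped a peak of the other by at least 1 bp. Chromosomes 3 to 12 gave 20.02% and 25.8%, and the 12 chromosomes 22.8% and 29.3%. Dense loci had 66.2% and 76.5% found, against 32.9% and 41.9% outside them on the same chromosomes, a mean difference of 33.9 points (SD 0.942, n = 2). The 2 values count the same overlaps from either list, so this SD is not a spread of independent replicates. With dense loci built from 1 list alone the difference was 12.6 points without replicate 1 and 13.7 points without replicate 2. Compact loci had 85.6% and 91.5% found, against 20.1% and 27.1% outside. Both kinds of locus were built from found peaks, so these shares had to be high and are a description.

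The number of fragments went with being found. In replicate 1, 5.78% of peaks with 10 to 14 fragments were found, 20.5% with 15 to 19, 41.4% with 20 to 29, 69.4% with 30 to 39 and 84.3% with 40 or more. In replicate 2 the shares were 10.5%, 25.7%, 52.5%, 82.4% and 90.9%. On chromosomes 3 to 12 the shares were 8.11%, 23.6%, 42.6%, 63.4% and 78.3% in replicate 1 and 11.9%, 29.9%, 52.2%, 81.5% and 88.9% in replicate 2. In both replicates the shares on chromosomes 1 and 2 were lower in the classes under 20 fragments and higher from 30 fragments on. Being found is what the rule used, and peaks of 1 library are not replicates, so these shares were not tested. By background, peaks above the limit were found at 69.9% and 78.8%, against 65.4% and 74.7% on chromosomes 3 to 12. Those within it were found at 16.9% and 23.1%, against 18.4% and 23.7%.

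Runs of 3 or more peaks with gaps of at most 5 kb were also built in 1 replicate alone and looked for in the other. These are the same 2 lists that chose the intervals, so the shares are a description. Replicate 1 had 368 such runs on chromosomes 1 and 2, and 235 (63.9%) held at least 3 peaks of replicate 2, while 6.25% held none. Replicate 2 had 292, of which 220 (75.3%) held at least 3 peaks of replicate 1 and 0.685% held none. On chromosomes 3 to 12 the shares with at least 3 were 33.8% and 45.8%. The shares were higher on chromosomes 1 and 2 in either direction, where peaks also had more fragments.

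Few intervals carried H3K27me3. A peak of H3K27me3 replicate 1 overlapped 38 intervals (3.06%) and one of replicate 2 also 38, while 12 (0.967%) had both and 64 (5.16%) had either. Over the 12 chromosomes the shares were 3.16%, 2.30%, 0.797% and 4.66%, so chromosomes 1 and 2 were near the background. Of the 64 intervals, 53 (82.8%) were above the H3K9me2 background limit in both replicates, against 59.5% of all 1241. The 38 overlapping peaks of each H3K27me3 library had a median fold of 2.98 in replicate 1 and 3.09 in replicate 2, against 8.66 for the other H3K27me3 peaks of these chromosomes in each replicate. In replicate 1 all 38 were below that median, and in replicate 2 37 were, the exception reaching 17.2.

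The 5 intervals with the longest H3K27me3 overlap, summed over both replicates, all had an H3K9me2 background above the limit in both. The interval on chromosome 2 from 130807524 to 130808025 had 131 and 169 H3K9me2 fragments over backgrounds of 31.8 and 57.3, and H3K27me3 folds of 2.37 and 2.03. On chromosome 1, the interval from 46421322 to 46421854 had H3K9me2 folds of 8.73 and 6.08 and H3K27me3 folds of 3.73 and 3.86. Those from 151193693 to 151194449, from 113669642 to 113670258 and from 308846070 to 308846671 had H3K27me3 folds between 2.65 and 3.98. Counted in a single library, longer overlaps of 623 and 549 bp lay on chromosome 2 at 621910 to 622553 and 130806052 to 130806710, in H3K27me3 replicate 1 with none in replicate 2.

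Of the 12 intervals with an H3K27me3 peak of both replicates, 10 were above the H3K9me2 background limit in both. The remaining 2 lay at the end of chromosome 2 and were singled out after their values were seen. The interval from 178530500 to 178530705 had H3K9me2 backgrounds of 2.31 and 2.98, and H3K27me3 peaks of folds 6.18 and 3.48 covered 205 and 206 of its 206 bp. The interval from 178531804 to 178532122 had backgrounds of 2.32 and 3.82 and lay wholly inside H3K27me3 peaks of folds 4.09 and 17.2. The last of these peaks was 8543 bp wide, so this second interval lay in a broad H3K27me3 region in 1 library. The replicate 2 peak at the first interval was 1694 bp wide.

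H3K4me3 peaks were nearly absent from the intervals. Replicate 1 overlapped 1 interval and replicate 2 overlapped 2, against 0.0703% and 0.164% of intervals over the 12 chromosomes, and 0 intervals had both, against 0.0234%. Either replicate overlapped 3 (0.242%), against 0.211% over the 12 chromosomes. These were on chromosome 1 from 203118514 to 203118839, with an H3K4me3 fold of 3.67 in replicate 2, and from 285333609 to 285334107, with 2.33 in replicate 2, and on chromosome 2 from 73561359 to 73562264, with 2.09 in replicate 1. All 3 were above the H3K9me2 background limit in both replicates, and outside compact loci the median H3K4me3 fold was 26.3 and 25.2.

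Most compact loci held no peak of the 2 other marks. Of the 177, 153 (86.4%) held no H3K27me3 peak and 172 (97.2%) no H3K4me3 peak of either replicate, against 85.1% and 96.5% on chromosomes 3 to 12. They covered 0.213% of chromosomes 1 and 2 and held 47 (0.583%) and 15 (0.208%) of the H3K27me3 peaks, and 1 (0.0129%) and 7 (0.0917%) of the H3K4me3 peaks. The share of H3K4me3 peaks was below the share of the span in both replicates, while that of H3K27me3 peaks was above it in replicate 1 and near it in replicate 2. The H3K27me3 peaks in them had a median fold of 2.82 and 2.87 and a median background of 18.4 and 7.78, against 1.41 and 1.46 outside. Of the 47 peaks of H3K27me3 replicate 1, 33 lay in the series of 22 intervals on chromosome 2, at a median fold of 2.73, where replicate 2 had 1. The median distance of an interval to the nearest shared region was 127 kb for H3K27me3 and 93.1 kb for H3K4me3, against 172 and 99.5 kb on chromosomes 3 to 12.

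In dense loci the 2 other marks differed by less than the SD of the H3K27me3 replicates (0.313 points), though by more than that of the H3K4me3 replicates (0.0466 points). Of the peaks on chromosomes 1 and 2, 0.484% and 0.0417% of H3K27me3 and 0.0258% and 0.0917% of H3K4me3 in replicates 1 and 2 lay in dense loci, which covered 0.151% of the span. The libraries of the marks overlapped. Locus 1 alone held 37 of the 39 H3K27me3 peaks of replicate 1 in dense loci, and 1 of 3 in replicate 2. It held 0 of 2 H3K4me3 peaks in replicate 1 and 5 of 7 in replicate 2. The largest share, that of H3K27me3 replicate 1, thus came mostly from 1 locus. The difference of means, H3K27me3 minus H3K4me3, was 0.204 points, with an exact two-sided permutation p of 0.667 over the 6 arrangements, and the smallest p this design allows is 0.33. Without replicate 1 the difference was -0.00895 points, and without replicate 2 it was 0.719 points. It was 0.00715 points for peaks of at least 3-fold, 0.00721 points within the background limit and 0.918 points with loci joined over 500 kb.

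Away from the dense loci, chromosomes 1 and 2 kept most of their intervals. There were 1148 left, or 2.25 per Mb, against 0.989 per Mb on chromosomes 3 to 12, a ratio of 2.27. The ratio was 1.24 without replicate 1 and 1.15 without replicate 2, when the peaks of 1 list take the place of shared intervals, and it was 3.80 for peaks with a −log10 q of 5 or more. Without the compact loci the densities were 1.12 and 0.949 per Mb. Without compact loci and with background within the limit, 254 intervals were left at 0.497 per Mb, against 0.841 per Mb on chromosomes 3 to 12. These 254 had median folds of 4.51 and 4.58 on 17 and 16 fragments, and only 3.97% of their gaps were at most 5 kb, so they were as weakly covered as intervals elsewhere and mostly solitary.

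Of the 6 intervals named here as highest in mean fold outside dense loci, 5 were above the background limit in both replicates. Over all H3K9me2 peaks of chromosomes 1 and 2 the fold ran the other way, at medians of 3.44 and 3.33 above the limit and 4.41 and 4.47 within it. On chromosome 1 the highest mean fold was at 180542147 to 180542606, with 122 fragments at a fold of 10.1 in replicate 1 and 134 at 14.03 in replicate 2. It was followed by 270258910 to 270259372, at folds of 10.7 and 10.5, and 321337631 to 321338340, at 8.30 and 9.69 on 155 and 152 fragments. On chromosome 2 the highest was at 71316833 to 71317690, with folds of 11.7 and 8.35. It was followed by 73561359 to 73562264, at 7.37 and 7.74, the interval that also had an H3K4me3 peak, and 93678672 to 93679104, at 7.38 and 6.25 on backgrounds of 5.51 and 6.68, the first within the limit. Of these 6, the 5 above the limit also overlapped an H3K27me3 peak, of folds between 2.05 and 4.54. Of all 1241 intervals, 64 (5.16%) overlapped one, and 53 of these 64 were above the limit in both replicates. The 6 were chosen by fold, so their overlap is a description.

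By position, intervals of chromosomes 1 and 2 were not gathered at the ends. The outer 15% at each end held 33.1% of them, against 46.9% on chromosomes 3 to 12, and the middle 40% held 37.1%, against 30.3%. Chromosome 2 had 49.5% in its middle and chromosome 1 had 30.6%. Among intervals within the background limit in both replicates these shares were 35.0% and 19.4%, against 31.4% on chromosomes 3 to 12. Without dense loci the outer share was 32.5%, against 36.3% on chromosomes 3 to 12. Much of the difference in the outer share thus went with dense loci of chromosomes 3 to 12.

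The high local background ran along all of chromosomes 1 and 2. Peaks above the limit made up 32.6% of the H3K9me2 peaks there in replicate 1 and 36.4% in replicate 2, against 3.44% and 4.11% on chromosomes 3 to 12 and 9.08% and 10.4% over the 12 chromosomes. They occurred in every stretch of 20 Mb of both chromosomes, in both replicates. On chromosome 3 the shares were 13.9% and 14.99% in the first 140 Mb and 1.31% and 2.33% in the remainder, a division chosen after seeing the data. Chromosomes 4 to 12 ran from 1.70 to 5.99% in replicate 1 and from 1.71 to 7.29% in replicate 2. H3K27me3 and H3K4me3 peaks on chromosomes 1 and 2 had shares of 0.331 to 1.53% in their 4 libraries, against 0.184 to 4.27% on chromosomes 3 to 12.

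Peaks within the limit showed the opposite order. In replicate 1 there were 4.64 per Mb on chromosome 1 and 4.81 on chromosome 2, against 4.98 to 6.25 on the chromosomes 3 to 12. In replicate 2 there were 3.42 and 3.60, against 3.95 to 5.02. Both chromosomes were below all the others in both replicates. Compact loci came to 0.360 per Mb on chromosome 1 and 0.319 on chromosome 2, against 0.143 in the first 140 Mb of chromosome 3, 0.0268 in its remainder and 0.0267 to 0.102 on chromosomes 4 to 12. Of the compact loci, 11 of 177 held no interval above the limit in both replicates on chromosomes 1 and 2, against 110 of 141 on chromosomes 3 to 12. What sets the local background of these chromosomes in the H3K9me2 lists was not tested.

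**Figure D5:**
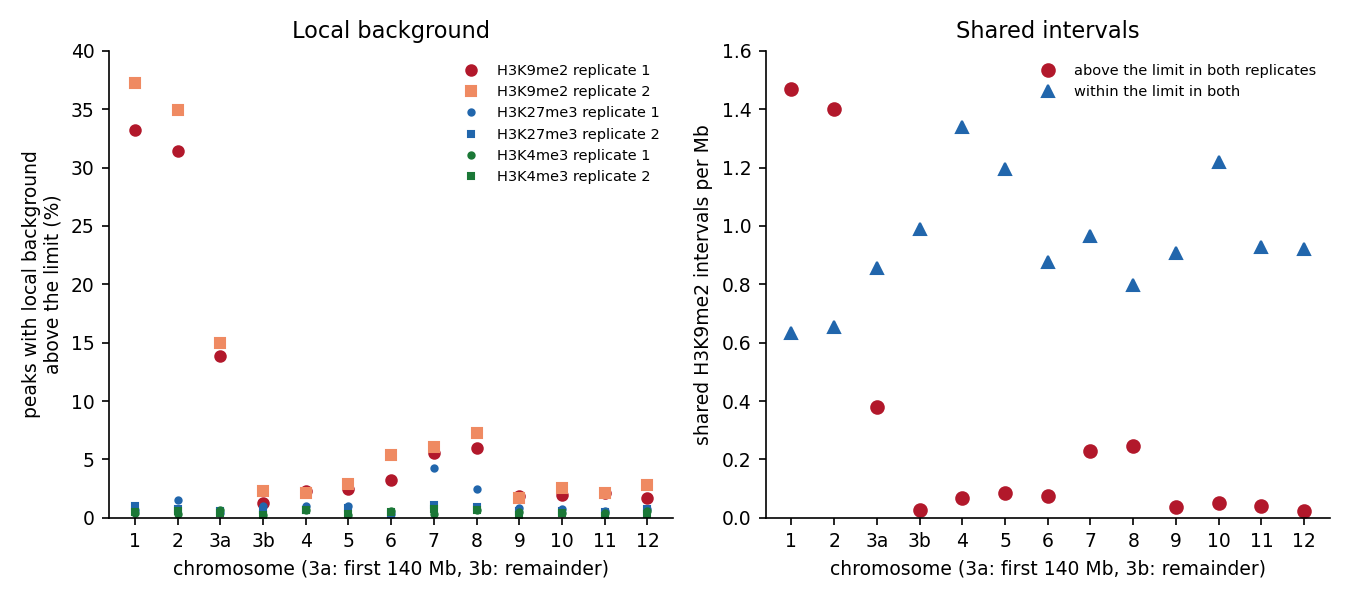
Share of peaks with a local background above the limit (left, %, 6 libraries) and shared H3K9me2 intervals per Mb above and within that limit in both replicates (right), by chromosome, with chromosome 3 divided at 140 Mb. Chromosomes 1 and 2 have 31.4 to 37.2% of H3K9me2 peaks above the limit, and the fewest shared intervals per Mb within it (0.633 and 0.655).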

How the data were processed

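Peak lists of 6 immunoprecipitated libraries, called per library, were used. Samples were grouped by their titles, in which the prefix YZ is not explained. The submitters' processing notes name BWA 0.7.17, Trimmomatic 0.38, deepTools 3.3.0 and MACS2 2.2.7.1, without settings. The genome build is not given in the sources. Each deposited list gives the authors' fold enrichment, a linear ratio over local background, with p-value and q-value as −log10; all q were above 2 on that scale.

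Fragments n and background were recovered by reading the fold as (n + 1) over (background + 1) and p as a Poisson tail, which gave n within 0.01 of a whole number for 100% of peaks. Chromosome length was taken as the last peak end. Overlap meant at least 1 bp. Coordinates are the files' own, counted from 1, and no gene was assigned because the gene table at hand is of another build. The Wilson interval covers counting error only and takes the shared intervals as independent.

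Named are all dense loci, the 5 fullest bins of 100 kb and 3 of 1 Mb per chromosome, in the 3 largest loci the 2 intervals of highest mean fold and the longest, the 3 highest outside dense loci per chromosome, every interval with an H3K4me3 peak and the 5 with the longest H3K27me3 overlap summed over both replicates. The intervals and lists were chosen with earlier results of these data known. Shares of peaks were compared by exact permutation over libraries. Alternatives were other limits of q, fold and background, joining, chaining distance, locus size and leaving out a replicate. Replicate numbers share only a number, so no pairing was assumed. Scripts (Python 3.11.15, numpy 2.4.6, scipy 1.17.1, pandas 2.3.3, matplotlib 3.10.9) were tested on simulated data.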

Additional observations from a re-analysis of the deposited data

Results flagged for a closer look

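Outside the chromosomes, 711 shared H3K9me2 intervals lay on 8 sequences named HiC_scaffold, 512 of them on the fullest, a signal in sequences that the comparisons above do not use. Of these, 98.2% were above the background limit in both replicates, against 23.4% over the 12 chromosomes. Their median local background was 25.8 in replicate 1 and 27.2 in replicate 2, near that of the series of 22 intervals on chromosome 2 (24.99 and 28.4), and their median fold was 3.32 and 3.10.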

How the results depend on the processing

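Each result was recomputed under the alternatives, 76 values in all. Counts were taken as moved past 1.5 times, and gaps, differences and ratios past 1 SD. For the difference in found peaks, that SD comes from the same overlaps counted from either list and is no measure of independent spread. Shares were taken as moved past their 95% interval, which is too narrow for intervals that lie in groups. Only a change of sign or call counted for the tested difference between marks. The number of intervals (1241) was 610 under a limit on q (−log10 of 5 or more), 328 at a background of at most 5 times the lowest, and 2804 to 3568 with either replicate left out. The share in dense loci (7.49%) was 4.10% with the q limit, 4.99% at a fold of at least 3, 13.1% with the background limit, 4.19% when chaining over 20 kb, 27.3% over 500 kb, 5.72% with 20 intervals a locus, 12.7 to 18.0% with a replicate left out, and 54.1% in compact loci. The number of loci holding 50% (115) was 69 with the background limit, 60 when chaining over 500 kb and 219 to 239 with a replicate left out.

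The median gap in dense loci (3029 bp) was 3574 bp with the q limit, 3872 bp with the fold limit and also with the background limit, 4256 bp when peaks within 1 kb were joined, 3203 bp for intervals of at least 100 bp, 3322 bp over 20 kb, 3197 bp with 20 intervals, 2114 to 2282 bp with a replicate left out and 1231.5 bp in compact loci. The difference in found peaks (33.9 points) was 46.6 with the q limit, 31.3 with the fold limit, 46.1 with the background limit, 32.5 with joining, 30.02 from 100 bp, 29.3 over 20 kb, 31.1 with 20 intervals, 12.6 to 13.7 with a replicate left out and 64.9 in compact loci. The density ratio outside dense loci (2.27) was 3.80 with the q limit, 1.76 with the fold limit, 1.998 with joining, 2.35 from 100 bp, 2.17 over 20 kb, 2.06 over 500 kb, 2.18 with 20 intervals, 1.15 to 1.24 with a replicate left out and 1.18 outside compact loci. It lay below 1 only with the background limit, at 0.650. The cause was not tested.

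The H3K27me3 minus H3K4me3 share in dense loci (0.204 points) was -0.00895 to 0.719 points with a replicate left out, and reversed without replicate 1. It was 0.00715 with the fold limit, 0.00721 with the background limit and 0.918 over 500 kb, and none of these could pass a test whose smallest p is 0.33. With the replicate number as a block, the pairs differed by 0.458 and -0.0501 points, a mean of 0.204, with an exact sign-flip p of 1, where the smallest is 0.5. Compact loci and the division of chromosome 3 were chosen after seeing the data. Few fragments per summit limit the precision, and 2 libraries a mark allow no p under 0.33.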
